A study of Mus musculus with 9 samples.

Results

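The nuclear genes of oxidative phosphorylation were taken as the autosomal protein-coding genes of GRCm38 whose symbols start with Nduf, Uqcr, Cox4 to Cox8 or Atp5, together with Sdha, Sdhb, Sdhc and Sdhd. Of 115 matching symbols, 96 were protein-coding and 19 were pseudogenes. Leaving out 3 X-linked genes (Ndufa1, Ndufb11 and Cox7b) gave 93 members among 20560 autosomal protein-coding genes. Complex I had 47 members, of which 39 carry subunit symbols and 8 carry the Ndufaf symbol of assembly factors. Members were assigned by symbol, so Ndufa4 and its paralog Ndufa4l2 are counted under complex I, though they are related to complex IV. Complex II had 4 members, complex III 8, complex IV 17 and complex V 17.

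The respiratory chain of the inner mitochondrial membrane passes electrons from NADH (complex I) and succinate (complex II) through complex III to oxygen at complex IV, and ATP synthase (complex V) uses the resulting proton gradient. Most of its subunits are encoded in the nucleus, and a smaller set, with none of complex II, is encoded by the mitochondrial genome. Complex IV has several subunits with paralogs used mainly in heart and skeletal muscle, lung or testis. Neurons depend heavily on this pathway, and in vertebrates the starts of broadly used genes usually lie in CpG islands that carry little methylation.

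Whole-genome bisulfite sequencing measured CpG methylation in DNA from frozen punches of the nucleus accumbens, the ventral part of the striatum. All 9 libraries are of male C57BL/6J mice, 8 weeks old, in the labelled groups Control (5 libraries, numbered 2, 3, 4, 5 and 8) and Susceptible (4 libraries, numbered 2, 3, 6 and 7). The labels attach the same treatment to both groups, 10 days of defeat by a CD1 aggressor, and the sources used here give neither the handling of Control mice nor the scoring of susceptibility. No genetic change is named for any group, and nothing says whether a library pools animals, so the spread between libraries is taken as the replicate error. Hydroxymethylated cytosines are read as methylated by bisulfite and were not told apart. A punch holds many cell types, so a level is an average over them.

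A level is the percentage of methylated calls among all calls in a window of 1 library. The start window reaches 1000 bp on each side of the annotated start and the gene body is the rest of the gene. Listed calls in the members' start windows summed to between 147467 (Control 5) and 218359 per Control library, over 4982 to 6443 CpGs. In Susceptible libraries they summed to between 221864 and 294374 (Susceptible 2), over 6530 to 6819 CpGs. Every Susceptible library thus had more listed calls there than every Control library. Per listed CpG the groups overlapped, at 29.6 to 38.6 calls in Control and 34.0 to 43.2 calls in Susceptible libraries. The part of depth in the group differences was not tested. Intervals from such calls would cover counting error only. Control 5 and Control 8 stood apart from the other libraries. Their median absolute distance from the median of the 9 libraries over the members' starts was 1.55 and 1.32 points, against 0.428 to 0.884 points in the other 7 libraries. Control 5 was the highest of the 9 libraries at 25 members and the lowest at 21, and Control 8 at 17 and 20. As a check of the tissue, 7 of 8 marker genes of striatal projection neurons had starts below 10%, while the starts of 5 microglial marker genes read 76.8 to 90.9%. The gene bodies of all 8 striatal markers were higher in the Susceptible mean, with a median difference of 4.40 points, against 47.4% of all genes higher. Pooled, these bodies overlapped between the groups (63.4 to 66.9% in Control and 64.4 to 74.1% in Susceptible libraries). The bodies of all 5 astrocyte and all 5 microglial markers were lower, with median differences of -2.06 and -0.79 points, and their pooled levels overlapped too. The pooled starts of 5 oligodendrocyte markers did not overlap, at 32.5 to 38.9% in Control and 25.6 to 31.6% in Susceptible libraries, with 4 of 5 lower and a median difference of -2.01 points. The starts of the astrocyte markers were lower at 4 of 5, with a median difference of -4.67 points and pooled levels that overlapped. None of these genes passed an adjusted p under 0.05, and the part of cell makeup in the values that follow was not tested.

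The bases upstream of 6 members are shown as examples of low and high starts. Cox8a and Cox8b encode the widely used and the heart and muscle form of the same complex IV subunit. Cox7b2 and Cox7a1 encode paralogs used in testis and in heart and muscle. Ndufs4, an accessory subunit of complex I, and Sdhd, a membrane anchor of complex II, have low starts. Each line gives the 250 bases before the start, 5′ to 3′ along the gene, from RefSeq's GRCm38.p6 promoter table, with every CpG in capitals. Cox8b lies on the minus strand at chr7:140900447-140900696, Cox8a on the minus strand at chr19:7217617-7217866, Cox7b2 on the minus strand at chr5:71548206-71548455, Cox7a1 on the plus strand at chr7:30183921-30184170, Ndufs4 on the minus strand at chr13:114388095-114388344 and Sdhd on the minus strand at chr9:50603850-50604099.
Cox8b: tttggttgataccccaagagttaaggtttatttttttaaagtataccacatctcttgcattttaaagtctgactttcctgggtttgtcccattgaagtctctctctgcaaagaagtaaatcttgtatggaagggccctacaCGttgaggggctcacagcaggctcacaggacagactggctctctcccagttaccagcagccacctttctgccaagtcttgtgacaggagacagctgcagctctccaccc
Cox8a: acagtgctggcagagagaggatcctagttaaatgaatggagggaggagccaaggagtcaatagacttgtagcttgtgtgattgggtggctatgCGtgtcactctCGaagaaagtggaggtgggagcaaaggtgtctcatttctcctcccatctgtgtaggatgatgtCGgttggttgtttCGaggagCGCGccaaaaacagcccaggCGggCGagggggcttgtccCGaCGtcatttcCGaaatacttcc
Cox7b2: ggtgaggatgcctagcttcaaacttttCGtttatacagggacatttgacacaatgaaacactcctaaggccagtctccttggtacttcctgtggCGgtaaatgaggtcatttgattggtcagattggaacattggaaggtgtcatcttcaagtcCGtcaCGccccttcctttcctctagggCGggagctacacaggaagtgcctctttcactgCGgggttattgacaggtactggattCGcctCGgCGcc
Cox7a1: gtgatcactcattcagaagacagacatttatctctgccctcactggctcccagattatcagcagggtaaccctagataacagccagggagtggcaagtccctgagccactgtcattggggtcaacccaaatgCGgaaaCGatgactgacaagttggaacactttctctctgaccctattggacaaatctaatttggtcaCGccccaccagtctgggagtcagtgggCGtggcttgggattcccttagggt
Ndufs4: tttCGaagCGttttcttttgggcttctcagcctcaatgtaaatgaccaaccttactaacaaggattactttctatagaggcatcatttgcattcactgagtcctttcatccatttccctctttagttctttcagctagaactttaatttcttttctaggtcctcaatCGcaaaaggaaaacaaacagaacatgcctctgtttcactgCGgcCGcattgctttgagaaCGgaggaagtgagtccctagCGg
Sdhd: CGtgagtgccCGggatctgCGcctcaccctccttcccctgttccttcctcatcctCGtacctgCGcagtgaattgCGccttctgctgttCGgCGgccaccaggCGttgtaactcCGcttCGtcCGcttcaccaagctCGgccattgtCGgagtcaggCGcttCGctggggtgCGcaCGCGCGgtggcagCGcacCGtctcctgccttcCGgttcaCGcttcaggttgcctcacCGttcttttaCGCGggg

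CpG number and methylation differed widely among these stretches. The Sdhd stretch holds 27 CpGs and read 0.0625 to 3.36% over the 9 libraries. The Cox8a stretch holds 11 and read 0 to 2.19%. The Cox7b2 stretch holds 9 and read 88.1 to 100%. The Cox7a1 stretch holds 4 and read 0 to 18.4%, well below the level of its whole start window, which is given further on. The single CpG of the Cox8b stretch read from 0 to 81.8% on 11 to 55 calls, too few to place its level. The Ndufs4 stretch holds 7 CpGs and read 0%, 2.34%, 22.5%, 0% and 0.357% in the Control libraries (in the order 2, 3, 4, 5 and 8), and 5.10%, 15.3%, 28.5% and 17.1% in the Susceptible libraries (in the order 2, 3, 6 and 7). The same orders hold for the other values given by library. Control 4 lay inside the Susceptible range there. All 1525 CpGs listed in the members' promoters fell on a CG of the table's sequences (100%), so files and table share coordinates.

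Most members had starts with little methylation. Of the 92 members whose start windows passed the minimum of 3 CpGs and 20 calls in every library, 76 (82.6%) read below 10%, against 52.3% of the 18760 genes tested. The median member stood at 4.18% and the median gene at 8.93%. Only 7 members (7.61%) read 50% or more, against 30.0% of genes, and 9 lay between. The 1 member that missed the minimum was Ndufb4c, with 11 calls in its thinnest library. Among members, windows with more listed CpGs read lower (Spearman's rho of -0.65 across 92 genes, which are not independent replicates and share the same libraries).

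**Figure D1:**
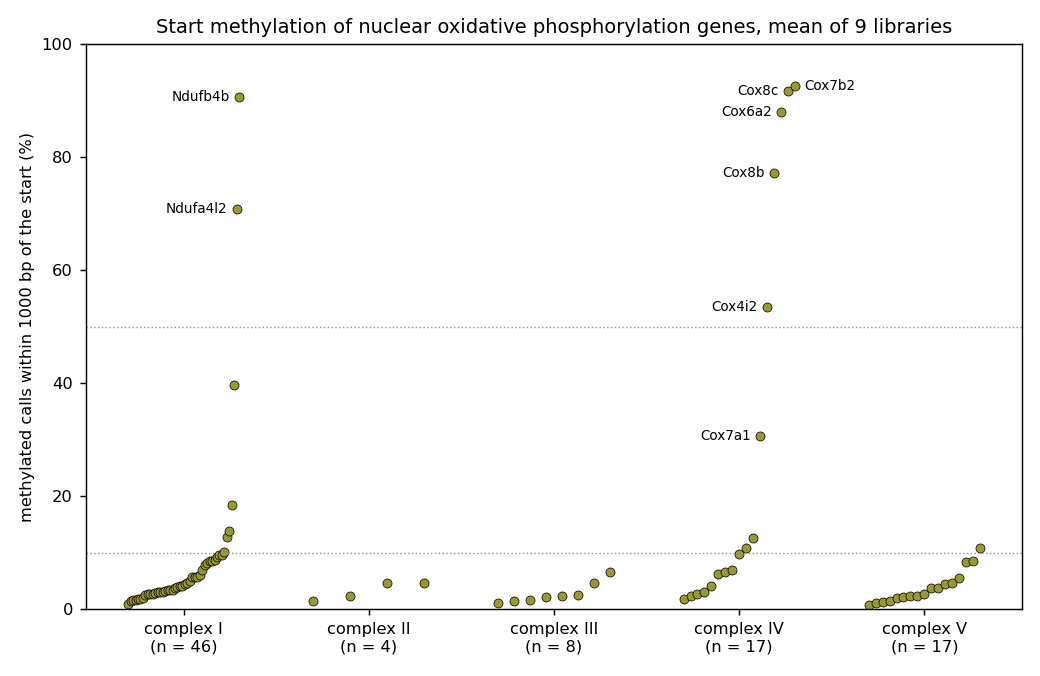
Each point is 1 member's mean level over the 9 libraries within 1000 bp of its start (vertical axis, percent of calls methylated), sorted within each complex. Starts of complexes II and III all lie below 10%, and the 7 members above 50% are counted by symbol under complexes I and IV. Ndufa4l2, counted under complex I, is related to complex IV. Names are given for these 7 and for Cox7a1.

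By complex, the pooled start level in Control libraries was 7.34% ± 0.296 (SD, n = 5) for complex I, 3.02% ± 0.493 for complex II, 2.36% ± 0.267 for complex III, 19.3% ± 1.63 for complex IV and 3.44% ± 0.411 for complex V. In Susceptible libraries these levels were 7.56% ± 0.287 (SD, n = 4), 3.35% ± 0.401, 2.70% ± 0.421, 17.5% ± 0.465 and 3.49% ± 0.139. Complex IV was above complex I in each of the 9 libraries, its lowest library (17.3%) standing above the highest of complex I (7.83%). Of its 17 members, 5 were at 50% or more and 9 were below 10%. Its median member, at 9.75%, also stood above those of the other complexes, which ran from 2.29% in complex III to 4.36% in complex I.

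In complex I, 39 of 46 tested starts were below 10%. The lowest was Ndufb1, an accessory subunit, at 0.988%. The subunits that carry the redox centres include Ndufv1, which binds NADH and flavin, with a mean of 4.19% in Control and 3.80% in Susceptible libraries, and Ndufs1, the largest iron-sulfur subunit, with 2.07% in both. All 8 assembly factors were below 10%, from 1.79% at Ndufaf2 to 9.55% at Ndufaf1. The starts above 10% included Ndufa5, Ndufb2, Ndufb7, Ndufc2, Ndufa4l2 and Ndufb4b. Ndufb4b, at 90.7%, is a near copy of Ndufb4 like Ndufb4c, and reads of such copies can be misplaced, so its level is uncertain. Ndufc2 read 18.5% over its window, but only 1.12% in Control and 1.87% in Susceptible libraries in the 500 bp after its start, and 92.9% and 88.5% in the most upstream 500 bp.

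All starts of complex II, which also serves the citric acid cycle, were low. Sdha, the flavoprotein, had a Control mean of 2.58% ± 1.04 (SD, n = 5) and a Susceptible mean of 2.28% ± 0.589 (SD, n = 4). Sdhb, the iron-sulfur subunit, read 4.33% ± 0.977 and 4.95% ± 0.697. The membrane anchor Sdhc, read at its CpG-richer gene end as no start was known, had 4.59% ± 1.64 and 4.95% ± 2.07. Sdhd read 1.46% ± 0.109 and 1.60% ± 0.762. The group differences of these genes ran from -0.30 to 0.62 points and lay within both SDs, except at Sdhd, where 0.14 points was more than the Control SD and less than the Susceptible SD. In complex III the levels ran from 1.21% at Uqcrh, the hinge protein, to 6.55% at Uqcr11. In complex V they ran from 0.711% at Atp5b, the catalytic beta subunit, to 10.8% at Atp5k, and 16 of 17 starts were below 10%.

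Complex IV has several paralogs with contrasting starts. Widely used forms had low starts: Cox4i1 read 2.33%, Cox6a1 averaged 2.45% in Control and 3.04% in Susceptible libraries, Cox6b1 6.19% and 6.35%, Cox7a2 3.87% and 2.20%, and Cox8a 5.98% and 7.38%. The Control mean of Cox7a2 rests on Control 5, at 12.5%, without which it was 1.70% and the sign of the group difference turned. Paralogs known from muscle, lung or testis were higher. Cox7b2 read 92.6%, Cox8c 91.8%, Cox6a2 88.0%, Cox8b 77.1%, Cox4i2 53.4% and Cox7a1 30.6%. The lowest of these paralogs was Cox6b2, the testis form, at 10.9%. Its 500 bp after the start read 3.23% in Control and 2.65% in Susceptible libraries, and its gene body, with 7 listed CpGs, read 8.20%, the lowest body of any member.

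The start was not placed for 18 of the 93 members, because the promoter table gives no start or strand for them, and the CpG-richer gene end stood in. For Cox6a2 both ends were high (88.0% and 91.9%), as for Cox8c (91.8% and 80.1%), and for Cox4i2 both were intermediate (53.4% and 51.1%). For Ndufa4l2, a paralog of Ndufa4, the choice decides the level. The end with 70 CpGs read 70.9% and the other, with 68 CpGs, read 6.58%, so this gene is counted above 50% only by 2 CpGs.

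The profile along the gene was sharper in the 65 low members with a known start than in other genes. Within 200 bp after the start the Control mean of these members was 0.954% ± 0.124 (SD, n = 5) and the Susceptible mean 1.10% ± 0.128 (SD, n = 4), and the 16382 other genes read 7.58% and 7.52%. Levels of the members rose to 72.4% and 73.3% between 1200 and 1400 bp after the start, where other genes read 45.7% and 45.0%. Upstream the members reached 82.7% and 83.0% between 2000 and 2200 bp and were lower again, at 35.1% and 30.9%, between 2800 and 3000 bp. The other genes include many with high starts, so this difference in part restates the choice of low members. Between 600 and 800 bp after the start, the rim of the low region, Control libraries lay between 6.81 and 9.30% and Susceptible libraries between 10.4 and 12.5%, with means of 8.06% ± 0.987 and 11.2% ± 0.986. The groups did not overlap in that bin, which was picked after its values were seen and was not tested. In the next bin, from 800 to 1000 bp, they overlapped (29.0 to 33.9% and 28.0 to 33.0%).

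**Figure D2:**
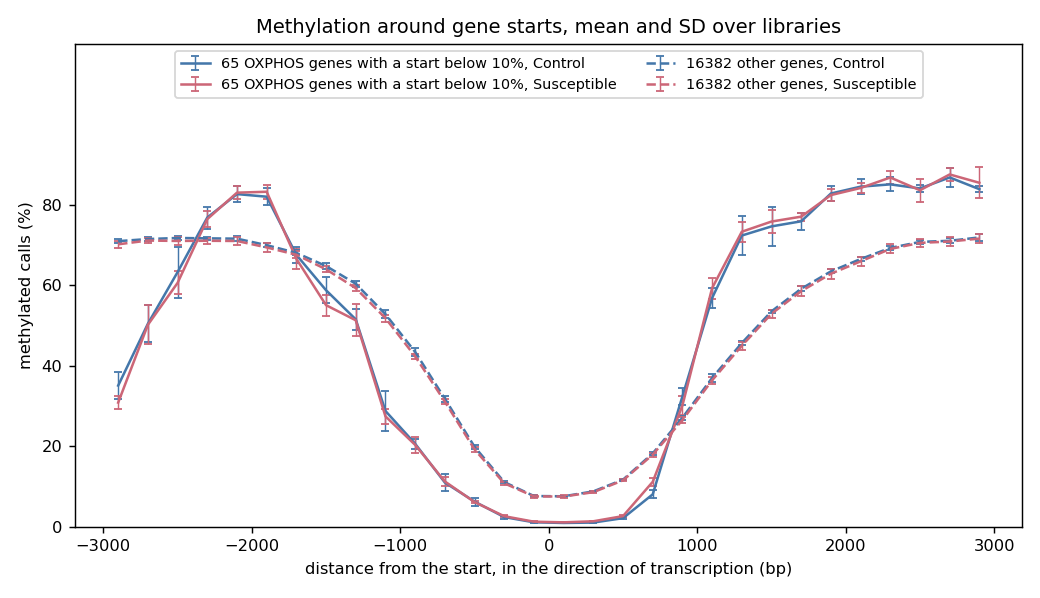
Percent of calls methylated (vertical axis) in 200-bp bins of distance from the start (horizontal axis, bp, positive into the gene), as mean and SD over the libraries of each group. The 65 low members dip to about 1% at the start and rise faster into the gene than the 16382 other genes, with the group lines close together.

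Starts shared with a neighbour were common. Of the 75 members with a known start, 21 (28%) had the start of a gene on the opposite strand within 1000 bp upstream, against 7.79% of 16457 genes and 14.1% of 7918 other genes with starts below 10%. The median distance was 135 bp. Ndufa7 lay 10 bp from the ribosomal protein gene Rps28, Ndufs3 19 bp from Kbtbd4, Sdhd 52 bp from Timm8b, which encodes a mitochondrial import protein, and Ndufb5 308 bp from the mitochondrial ribosomal protein gene Mrpl47. The windows of such pairs share CpGs, so a level there belongs to both genes.

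Motif letters were counted on both strands of the 300-base promoters (250 bases before to 50 after the start). The NRF1 motif (GCGCA, any base and GCGC), of a factor known for activating genes of mitochondrial function, was in 18 of 75 members (24%), in 6.88% of all promoters and in 12.1% of other promoters with starts below 10%. The ETS core CCGGAAG, recognised by GABP among others, was in 24%, 12.3% and 19.2%. The YY1 letters AANATGGCG were in 10.7%, 3.28% and 5.63%. The Sp1 letters GGGCGG were in 45.3%, 47.3% and 71.8%. A match is a description and no evidence of binding, and these shares carry no test. Among the 6 members whose upstream bases are shown, the 300-base window of Sdhd holds the NRF1, ETS and Sp1 letters, that of Cox8a the ETS core at 2 places, that of Ndufs4 the YY1 letters and that of Cox7b2 the Sp1 letters. Those of Cox8b and Cox7a1 hold none of the 4 motifs. The NRF1 and ETS letters of Sdhd and the Sp1 letters of Cox7b2 lie within the 250 bases printed, and the other matches reach into the 50 bases after the start, which are not printed.

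Gene bodies were highly methylated. Of 85 members whose bodies passed the minimum, 80 (94.1%) read 50% or more, close to the 93.4% of the 18217 genes tested, and the median member stood at 86.2%. The low bodies were Cox6b2 at 8.20%, Ndufa4l2 at 15.9%, Ndufb10 with group means of 33.3% and 33.4%, Atp5d, the delta subunit of the F1 part, at 36.7%, and Ndufaf3 at 49.6%. The Ndufa4l2 body takes in the inner part of its other gene end, which read 6.58%, so this value also rests on the choice of end. The bounds of Atp5d (from 80138698) reach upstream of the start used (80142275), so bases before that start count as its body. By complex, the pooled bodies in Control libraries read 82.4% ± 0.985 (SD, n = 5) for complex I, 84.0% ± 0.617 for complex II, 87.3% ± 1.73 for complex III, 83.8% ± 0.712 for complex IV and 72.3% ± 1.33 for complex V. Complex V was the lowest of the 5 in every library, with 70.3 to 73.8%, and its median member stood at 82.9%. Atp5d gave 3684 to 7660 of the 21037 to 38442 body calls of complex V per library.

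Between the groups, the pooled start level of all members averaged 7.83% ± 0.291 over Control (SD, n = 5) and 7.68% ± 0.227 over Susceptible libraries (SD, n = 4), and the difference of -0.15 points is smaller than either SD. All 20560 autosomal protein-coding genes, pooled, moved by -0.38 points, from 14.1% to 13.7%. Complex IV had the largest difference of the 5 complexes, at -1.77 points, with Control libraries at 18.1%, 19.8%, 18.5%, 22.0% and 18.2% and Susceptible libraries at 18.2%, 17.3%, 17.3% and 17.3%. The ranges overlapped through Control 2, Control 8 and Susceptible 2, and without Control 5 the difference was -1.11 points. The median difference over single members was 0.09 points, with 50 of 92 (54.3%) above 0, against -0.04 points and 48.4% over all genes.

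The pooled body level averaged 81.5% ± 0.820 over Control (SD, n = 5) and 82.0% ± 1.16 over Susceptible libraries (SD, n = 4). The difference of 0.51 points turned to -0.03 points without Susceptible 6 and to -0.44 points when whole gene bounds were used. Of 85 bodies, 54 (63.5%) were higher in the Susceptible mean, against 47.4% of all genes, with a median difference of 0.68 points. By set, 26 of 36 complex I subunits, 3 of 8 complex I assembly factors, 2 of 4 bodies in complex II, 5 of 8 in complex III, 7 of 14 in complex IV and 11 of 15 in complex V were higher.

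No member passed the test. The quasi-binomial fit, with its dispersion moderated by limma's squeezeVar, called 0 of 92 starts and 0 of 85 bodies at an adjusted p under 0.05, and 0 of all genes (a background of 0% for both windows). limma on logit methylation also called 0. An unadjusted p under 0.05 was reached by 5 of 92 starts (5.43%; background 4.88% of genes). Of these starts 4 were higher in Susceptible libraries (4.35%; background 2.39%) and 1 was lower (1.09%; background 2.48%). It was reached by 5 of 85 bodies (5.88%; background 3.94%), again 4 higher (4.71%; background 2.27%) and 1 lower (1.18%; background 1.67%). The share of starts was near the background. The adjusted p of each member named next was 0.932 for starts and 0.9999 for bodies, and the lowest over the alternatives run for the 5 starts and 5 bodies of smallest p were 0.817 and 0.752.

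**Figure D3:**
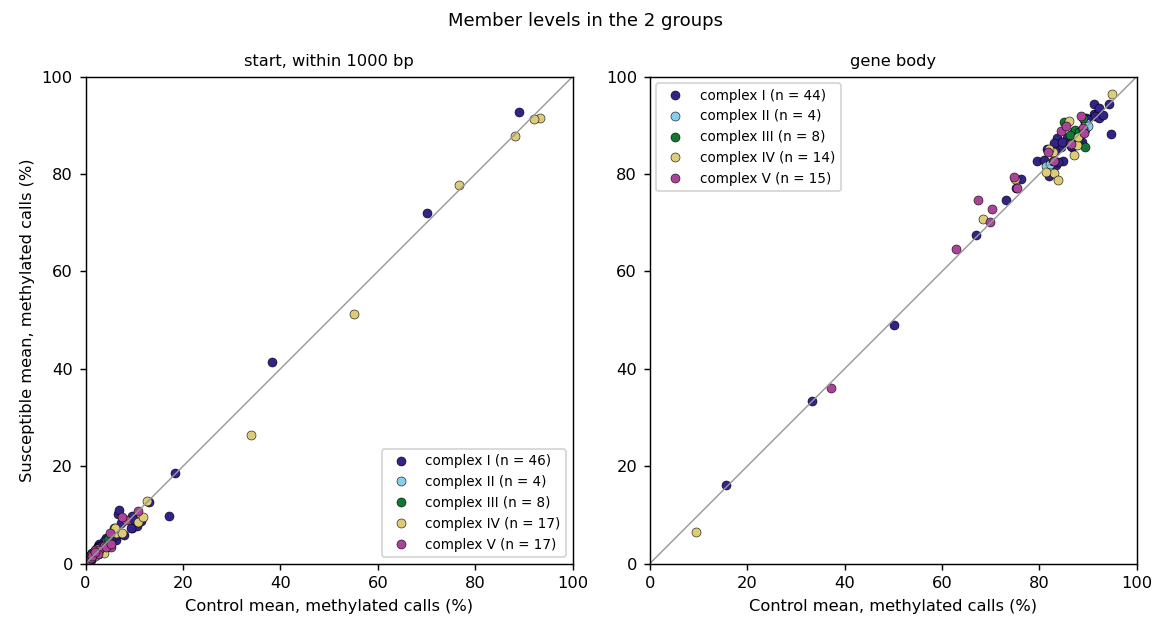
Each point is 1 member, with its Control mean on the horizontal and its Susceptible mean on the vertical axis (percent of calls methylated), coloured by complex, for starts (left) and gene bodies (right); the line marks equal levels. Points lie along the line, and Cox7a1, at 33.9% and 26.5%, and Ndufb7, at 17.1% and 9.84%, are the starts farthest below it.

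The difference at Ndufb7, an accessory subunit of complex I, rested on the 2 libraries that stand apart. Its start read 10.6%, 12.2%, 11.0%, 28.5% and 23.1% in Control libraries and 7.57 to 12.3% in Susceptible libraries. The difference of -7.24 points was -4.39 points without Control 5 and -1.42 points without Control 5 and Control 8.

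The groups did not overlap at 2 starts, both higher in Susceptible libraries (2.17% of members; background 1.95% of genes in either direction, 1.11% higher and 0.842% lower). The first was Ndufs4 (gene 17993, chromosome 13, 114287795 to 114388094), with a window of 62 CpGs and 687 to 2348 calls. Its start read 5.69%, 8.54%, 7.94%, 5.68% and 6.30% in the Control libraries, and 9.38%, 10.7%, 10.9% and 12.9% in the Susceptible libraries. All Susceptible libraries stood above the highest Control library. The difference of means was 4.13 points (unadjusted p = 0.00796, adjusted p = 0.932 in the limma-moderated fit), and 2.38 points over the CpGs listed in all 9 libraries. Within the window, the 500 bp before the start read 11.9% and 19.8% in the group means, and the 500 bp after it 0.544% and 0.418%. Control 5 had no calls from 500 to 1000 bp after the start.

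The second was Uqcrc2, a core subunit of complex III (chromosome 7, 120635189 to 120659523). Its CpG-richer end stood in for the start, and its other end read 88.1%. The end used read 1.44%, 1.20%, 1.49%, 1.60% and 1.06% in Control libraries and 1.83%, 2.08%, 2.11% and 2.58% in Susceptible libraries. Every Susceptible library was higher, but the difference was 0.79 points (unadjusted p = 0.0416, adjusted p = 0.932). It shrank to 0.12 points where only CpGs listed in every library were used, and to 0.05 points in 500-bp windows.

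Another 2 complex I starts reached an unadjusted p under 0.05 with groups that overlapped. Ndufa12, an accessory subunit, read 3.61 to 8.79% in Control and 8.76 to 11.9% in Susceptible libraries, a difference of 3.56 points (unadjusted p = 0.0179) that was 0.58 points in 500-bp windows (unadjusted p = 0.441). From 1000 to 500 bp upstream of Ndufa12, on 4 CpGs, the group means stood in the other order, at 60.8% and 52.8%. Ndufv2, an iron-sulfur subunit of the NADH module, read 0.651 to 1.88% and 1.73 to 2.10%, a difference of 0.68 points (unadjusted p = 0.0432). In Ndufv2 the difference lay from 1000 to 500 bp upstream, where 10 CpGs read 0 to 25% in Control and 28.1 to 48.4% in Susceptible libraries from as few as 27 calls, and in 500-bp windows it was -0.01 points.

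Cox7a1, the heart and muscle form of a complex IV subunit, was the 1 lower start (gene 12865, chromosome 7, 30184171 to 30186030, 34 CpGs, 281 to 1054 calls). It read 35.3%, 36.9%, 32.3%, 34.2% and 30.8% in Control libraries and 26.3%, 25.9%, 32.0% and 21.6% in Susceptible libraries. Susceptible 6 lay inside the Control range and the other 3 below it. The difference was -7.45 points (unadjusted p = 0.0465), and -0.44 points in windows of 2000 bp. The 500 bp after the start read 26.3 to 40.3% in Control and 20.7 to 25.2% in Susceptible libraries, while the 500 bp before it averaged 10.9% and 10.7%.

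Gene bodies did not overlap at 5 members (5.88%; background 1.43% of genes), 4 that were higher (4.71% of members; background 0.708%) and 1 that was lower (1.18%; background 0.725%) in Susceptible libraries. The count of higher bodies thus stood above its background, with no call among them. Cox7a2l, known as a factor in joining complexes III and IV (chromosome 17, 83501917 to 83514333), read 86.9%, 87.1%, 86.4%, 82.8% and 87.6% in Control libraries and 89.4%, 90.0%, 92.5% and 91.6% in Susceptible libraries. All Susceptible libraries were higher, by 4.71 points in the means (unadjusted p = 0.00421), but over whole gene bounds, start window included, the difference was -0.86 points.

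Ndufb5, an accessory subunit (chromosome 3, 32737057 to 32751559), read 84.3%, 80.3%, 85.5%, 84.4% and 83.6% in Control libraries and 88.6%, 86.7%, 88.0% and 86.1% in Susceptible libraries, a difference of 3.74 points (unadjusted p = 0.00898). It kept its direction under all 19 alternatives, from 2.91 to 5.92 points. Atp5mpl, a small subunit of ATP synthase, read 84.6 to 86.1% and 87.8 to 92.4%, a difference of 4.37 points (unadjusted p = 0.0105) that was 1.36 points over CpGs listed in all 9 libraries. Ndufb3 was the fourth, at 3.25 points (unadjusted p = 0.0659).

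The lower body was that of Ndufs5, an accessory subunit (chromosome 4, 123712710 to 123718186), from 48 CpGs and as few as 488 calls. It read 92.2%, 93.8%, 97.8%, 91.4% and 98.4% in Control libraries and 89.5%, 85.4%, 88.7% and 89.6% in Susceptible libraries. The difference was -6.40 points (unadjusted p = 0.0148) and stayed between -10.1 and -5.44 points under its alternatives. The fifth body by p was Ndufaf5, at 3.59 points (unadjusted p = 0.0497), with overlapping groups and a sign that turned in 1 alternative.

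**Figure D4:**
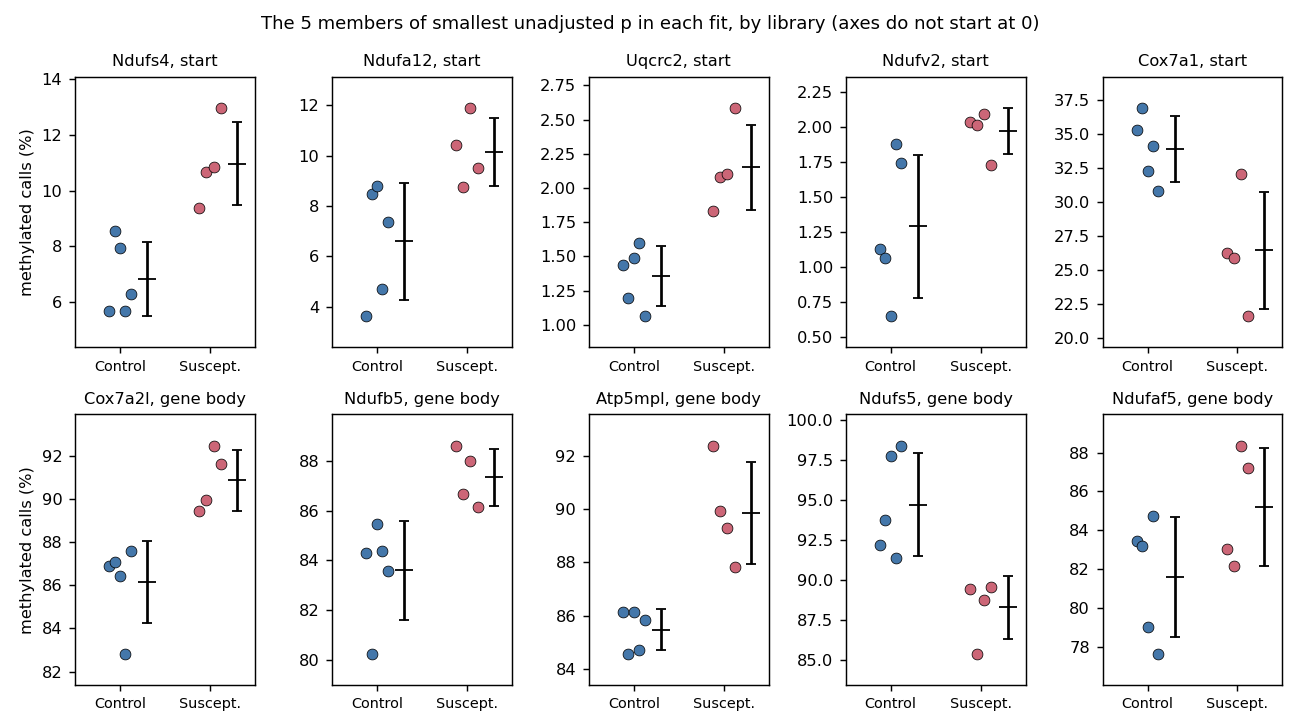
Percent of calls methylated in each library (points) with group mean and SD (bars) for the 5 starts (top) and 5 gene bodies (bottom) of smallest unadjusted p; each panel has its own vertical axis, which does not start at 0. The groups separate at the starts of Ndufs4 and Uqcrc2 and at the bodies of Cox7a2l, Ndufb5, Atp5mpl and Ndufs5.

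The mitochondrial genome encodes further subunits, and its level separated the groups. Its CpGs averaged 3.06% ± 0.513 over Control (SD, n = 5) and 12.4% ± 3.01 over Susceptible libraries (SD, n = 4; two-sided exact permutation p = 0.00794, the smallest that 126 splits allow). By the complex of the gene, 82 listed CpGs in 7 complex I genes read 3.05% and 12.8%, 24 in the complex III gene 2.66% and 11.1%, and 25 in 3 complex IV genes 3.11% and 14.2%, and the complex V genes held 0 listed CpGs. The 76 nuclear members with low starts, pooled, read 3.57%, 3.75%, 3.87%, 3.65% and 3.38% in the Control libraries, and 3.89%, 3.67%, 3.99% and 3.66% in the Susceptible libraries. Their means, 3.64% ± 0.184 and 3.80% ± 0.168, differed by 0.16 points, less than either SD. In Control libraries 25 to 44 of the 92 tested starts lay below the library's own mitochondrial level, and in Susceptible libraries 74 to 82. Nuclear low starts had 132488 to 258734 calls per library and mitochondrial CpGs 913027 to 2038090. The mitochondrial calls were made from many copies per cell, and the share of unconverted cytosines was not measured here on either genome.

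**Figure D5:**
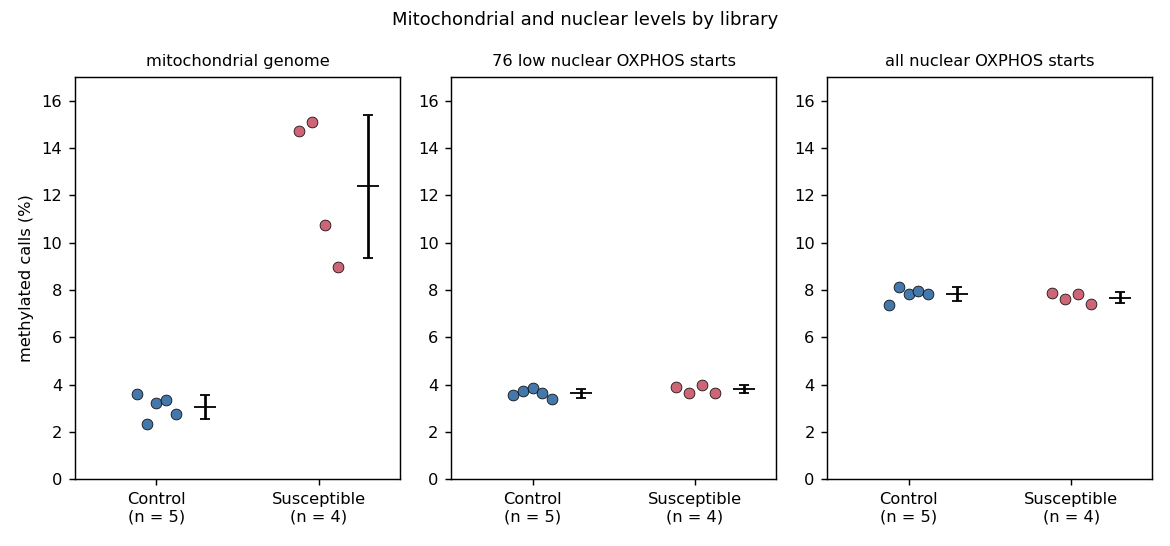
Percent of calls methylated per library (points) with group mean and SD (bars) for mitochondrial CpGs (left), the 76 pooled low nuclear starts (middle) and all nuclear member starts (right), on 1 scale. The groups separate for the mitochondrial CpGs, at 2.33 to 3.62% and 8.96 to 15.1%, and overlap in the other panels.

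Related genes outside the rule were tested in the same fits, which called 0 of all genes. Of 40 further factors that assemble the complexes, 33 had starts below 10% and 0 starts were called, with 2 at an unadjusted p under 0.05 (Sco2 by 1.98 points and Cox14 by 1.03 points, both higher; background 4.88% of genes). Of 37 of these tested in the body, 17 were higher and 20 lower in the Susceptible mean, with a median difference of -0.19 points. Among these bodies 0 were called and 1, Atpaf2, at 4.84 points, reached an unadjusted p under 0.05 (background 3.94%). The 3 cytochrome c and c1 genes (Cycs, Cyct and Cyc1) and the 6 regulators of mitochondrial gene expression had 0 calls in either window and 0 at that level.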

How the data were processed

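Per the file headers, each deposited table holds, for each cytosine, a count of calls (its coverage) and the percent read as C. Per the submitters' processing notes the build is mm10 and the tools named are Bismark, Bowtie and Picard, with versions and settings not given in the sources used here. No cytosine with fewer than 10 calls is listed, which sets a floor before deposit, and full depth is unknown. Listed calls ranged from 313475624 to 430312082 per Control library and from 432409939 to 570984634 per Susceptible library. Methylated calls were recovered as the rounded product of count and percent of C, strands were added, and the first of 4 and 8 repeated entries in Control 5 and Control 8 was kept.

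Gene bounds and starts came from RefSeq tables of GRCm38.p6. The promoter table gave a start for 75 members (16457 genes), and for 18 members (4103 genes) the gene end with more CpGs stood in. This start, not the gene bound, was chosen after the files were seen. A further 105 genes with scaffold coordinates were left out. Windows needed 3 CpGs and 20 calls in every library. A logistic model of methylated and unmethylated counts on group, with Pearson dispersion moderated by squeezeVar of limma 3.58.1 (R 4.3.3) and kept at 1 or more, was tested by F test with Benjamini-Hochberg adjustment over all genes of a window type. It was checked on simulated start windows, where changes were put only into windows of intermediate level and were larger than any member's difference. Gene bodies were not simulated, and the check does not tell how the fit fares on small changes at low starts. Pooled levels got no p, and the mitochondrial level an exact permutation test. The replicate is the library, whose spread may be in part technical.

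Named genes follow a rule: tissue isoforms and their counterparts, the 4 Sdh genes, the 5 smallest p and the non-overlapping members of each fit, and the highest and lowest start per complex. Other members were named after their values were seen, and 1 item is not reported here. Members and lists were chosen with earlier results of these data known. Alternatives covered the model, filters, CpG sets, windows, weighting, left-out libraries and the replicate block.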

Additional observations from a re-analysis of the deposited data

Results flagged for a closer look

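Single libraries far from the rest of their group were looked for in 154 groups of 4 or 5 libraries, and 11 (7.14%) were found, where chance gives about 1 in 20. The groups share libraries and in part calls, so they are not independent, and the excess over chance was not tested. Control 5 gave 4 of the 11: a high start at Cox7a2 (12.5%) and Cox7a2l (20.4%), a low start at Cox6a1 (1.52%) and a low body at Cox7a2l (82.8%). Control 8 gave 3: a low start at Atp5mpl (1.78%) and Ndufb4b (78.5%), and a low pooled body level of complex II (82.9%). Control 4 was low at the start of Cox4i1 (1.32%) and high at that of Cox8a (10.1%). Susceptible 6 was high at the start of Sdhc (8.05%), and Susceptible 2 had the highest pooled start level of complex IV in its group (18.2%). The thinnest windows of Cox7a2 and Cox7a2l held 375 and 460 calls.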

How the results depend on the processing

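The counts of members called stayed at 0 under all 22 alternatives for starts and 19 for bodies, including those without Control 5 and Control 8, added after seeing the data. Counts at an unadjusted p under 0.05 ran from 2 to 8 for starts and from 2 to 10 for bodies; without Control 5 and Control 8 they were 8 and 7, with limma 10 bodies passed, and without moderation 8 starts. Of 195 alternative values for pooled level differences, 189 moved by less than 1 SD. The other 6 were, with windows of 2000 bp, -0.45 points for all starts, -0.28 for complex I and -0.17 for complex II; with whole gene bounds, -0.96 for complex II bodies and -1.86 for complex IV bodies; and with genes weighted equally, 2.08 for complex V bodies. The direction turned at the Ndufv2 start in 500-bp windows (-0.0111 points) and at the Cox7a2l body with whole gene bounds (-0.86 points). The cause was not tested.

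Numbers 2 and 3 occur in both groups but the labels do not say that they pair animals. With these numbers as a replicate block, on 4 libraries, 7 starts and 2 bodies had an unadjusted p under 0.05, the Ndufaf5 body turned to -0.70 points, and the mitochondrial difference was 11.9 points, given without a test. Over all its alternatives the mitochondrial difference ran from 8.41 to 11.9 points. The listed calls limit what can be seen at starts near 1%, where a few methylated calls move a level.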
